A study of Auxenochlorella pyrenoidosa with 8 samples.

Results

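The 100 genes of the green alga Auxenochlorella pyrenoidosa (Chlorella pyrenoidosa) whose mean transcript level was highest after 1 h in air, relative to the other times sampled, did not form a set on which the libraries of that time agreed. Both 1 h libraries stood above all 6 other libraries for 15 of the 100 members. For 62 members only 1 h library 2 stood above all 6 others, for 18 only 1 h library 1 did, and for 5 neither did. In 32 of the 62, 1 h library 1 was below the 0 h mean. Among the 7019 genes from which the rule drew, the same groups held 62, 688, 402 and 5867 genes in that order. In 376 of those 688, 1 h library 1 was below the 0 h mean too. The peaks were also shallow. In the mean, the 1 h level exceeded the next highest time by a median of 0.27 on the log2 scale, and with all 8 libraries no member reached a 2-fold difference. The median was 0.14 without 24 h library 2, and 16 members reached 2-fold without 1 h library 1 and 9 without 24 h library 1.

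The members were chosen from the deposited values, which are reads scaled to the length of the gene and to the total reads of the library (RPKM). The 2 libraries of each time were averaged and 1 was added before taking log2, which gives 1 level per time. Of 10283 genes in the table, 7229 averaged 5 RPKM or more across the 8 libraries, and 7019 of these also had a 4 h level less than 1 log2 unit above the 0 h level. These 7019 are called eligible genes below. The 100 with the largest gap, the 1 h level minus the highest of the 0 h, 4 h and 24 h levels, are the members. All values at all 4 times therefore entered the choice, and levels, gaps and the differences from 1 h are given as descriptions.

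Cells of strain FACHB-9 had grown photoautotrophically on 5% CO2 for 5 days and were then bubbled with air. Whole-cell RNA was sequenced at 0 h (still on 5% CO2), 1 h, 4 h and 24 h of air, with 2 libraries per time from independent experiments handled in 1 batch. There is no culture held on 5% CO2 beyond 0 h among the samples used here, so time, handling and the loss of CO2 cannot be told apart. In bulk RNA of a culture, a change in the make-up of the cell population and a change in the RNA of each cell cannot be told apart either.

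A fall in CO2 is a familiar signal for green algae. In Chlamydomonas reinhardtii, the best studied relative, it sets off a carbon-concentrating mechanism, in which bicarbonate transporters and carbonic anhydrases raise CO2 around the carboxylating enzyme RuBisCO, under the control of the zinc-containing regulator CIA5 (CCM1). Genes of photorespiration, which recycles the product of the oxygenase reaction of RuBisCO, are known to rise in that alga early after the shift and to decline again as the carbon-concentrating mechanism takes over. An early transient of this kind is the question that the 1 h samples can address. The files pair the gene numbers of this strain with no gene name or product, so none of the members can be placed in these pathways, and they are given by number and position. The functional lists fixed by keyword could not be matched for the same reason. No sequence of the strain was used here. The sources used here do not name the assembly behind the scaffold names.

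Reads assigned to genes ranged from 16706278 to 35463138 per library, and 1 read in a gene of 1 kb stood for 0.0282 to 0.0599 RPKM. A member rested on a median of 860 reads per library, on at least 54 in any library and on at least 85 in a 1 h library. Libraries 1 and 2 at 1 h stood apart from each other more than from some libraries of other labels. Over all 7019 eligible genes 1 h library 2 correlated at r = 0.990 with 24 h library 1 and at r = 0.943 with 1 h library 1. 1 h library 1 correlated at r = 0.974 with 0 h library 2 and at r = 0.971 with 24 h library 2. Within a time, r was 0.952 at 0 h, 0.991 at 4 h and 0.911 at 24 h. These correlations are across genes, which share depth and library and are not replicates. This leaves the labelling of 1 h and 24 h in doubt. At 0 h too, library 2 was closer to 1 h library 1 than to 0 h library 1. Whether the labels are right was not tested. The labels are used as given, and every 1 h mean, gap and split between libraries below depends on them.

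**Figure D1:**
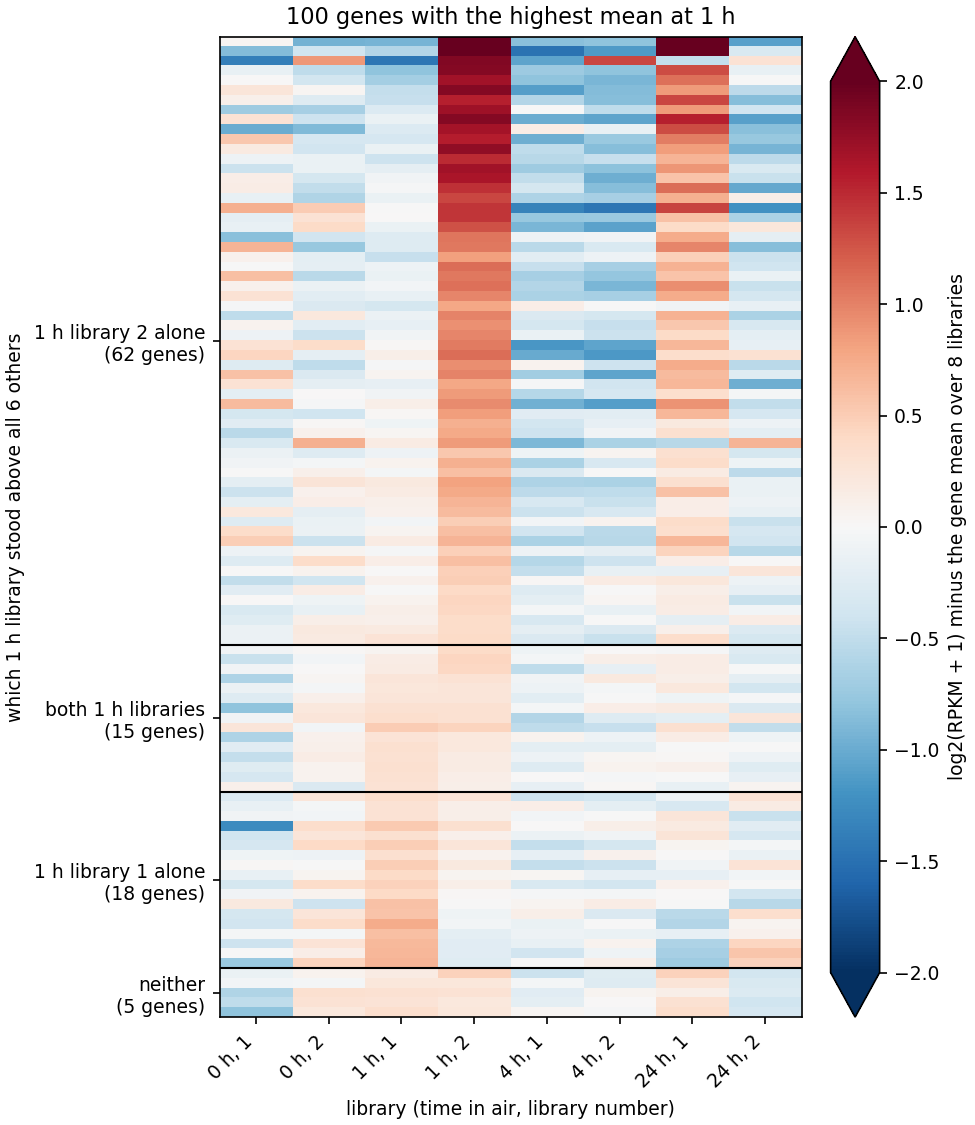
Each row is a member and each column a library. The colour gives log2(RPKM + 1) minus the mean of that gene over the 8 libraries, and rows are grouped by which 1 h library stood above all 6 others. In the 62 genes of the top block 1 h library 2 is the reddest column and, for most of them, 24 h library 1 the next, while 1 h library 1 is mostly pale, and the 15 genes with both 1 h libraries on top show only faint differences.

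The largest gaps belonged to genes that, of the 1 h libraries, were high in library 2 only. The member ranked first, g3826, has 9 coding exons with 1176 bp of coding sequence and lies on scaffold00514 (652888 to 656581, minus strand). It stood at 6.39 and 4.00 RPKM at 0 h, 4.94 and 21.3 RPKM at 1 h, 3.59 and 2.59 RPKM at 4 h, and 10.6 and 2.43 RPKM at 24 h, for libraries 1 and 2 in turn. Its 1 h library 2 was 4.32 times its 1 h library 1, which lay between the 0 h libraries. The second highest value of the 8 was that of 24 h library 1. In the means, 13.1 ± 11.6 RPKM at 1 h compared with 6.49 ± 5.74 RPKM at 24 h and 5.19 ± 1.69 RPKM at 0 h (SD, n = 2 each), a gap of 0.92 on the log2 scale. Without 1 h library 2 the gap was -0.33, so that 1 h was no longer the highest time.

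The member ranked second, g9180, repeated this order. The gene has 13 coding exons with 1416 bp of coding sequence and lies on scaffold01211 (517082 to 522475, minus strand). It stood at 23.9 and 16.8 RPKM at 0 h, 20.6 and 69.6 RPKM at 1 h, 15.1 and 10.5 RPKM at 4 h, and 32.8 and 15.6 RPKM at 24 h. Here too 1 h library 1 fell between the 0 h libraries, and 24 h library 1 was the next highest after 1 h library 2. The gap of 0.87 became -0.23 without 1 h library 2 and 1.11 without 24 h library 1.

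The members ranked next, up to the sixth, shared the pattern. g7148, with 7 coding exons and 1035 bp of coding sequence at scaffold01003 (927468 to 930016, minus strand), had 9.82 and 27.9 RPKM at 1 h, 8.55 and 12.1 RPKM at 0 h, 5.35 and 5.43 RPKM at 4 h, and 15.2 and 5.95 RPKM at 24 h. g2729, a model cut off by the edge of scaffold00312 (1 to 1560, minus strand), had 9.24 and 49.9 RPKM at 1 h, 16.0 and 13.6 RPKM at 0 h, 5.65 and 6.80 RPKM at 4 h, and 24.7 and 8.97 RPKM at 24 h. For this gene 1 h library 1 was below both 0 h libraries, although 1 h was the highest time in the mean. g259, with 5 coding exons and 1131 bp of coding sequence at scaffold00012 (1360196 to 1362879, minus strand), was the most abundant of these, at 46.7 and 185 RPKM at 1 h, 34.2 and 35.1 RPKM at 0 h, 56.0 and 39.2 RPKM at 4 h, and 103 and 42.8 RPKM at 24 h. g7045, a short gene of 4 coding exons with 405 bp of coding sequence at scaffold01003 (391963 to 393207, plus strand), had 7.30 and 84.4 RPKM at 1 h, 5.87 and 8.45 RPKM at 0 h, 3.48 and 4.69 RPKM at 4 h, and 48.9 and 9.12 RPKM at 24 h. In these genes, as in g3826 and g9180, the second highest value was that of 24 h library 1, and the groups at 1 h and 0 h overlapped in g3826, g9180, g7148, g2729 and g7045 but not in g259.

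**Figure D2:**
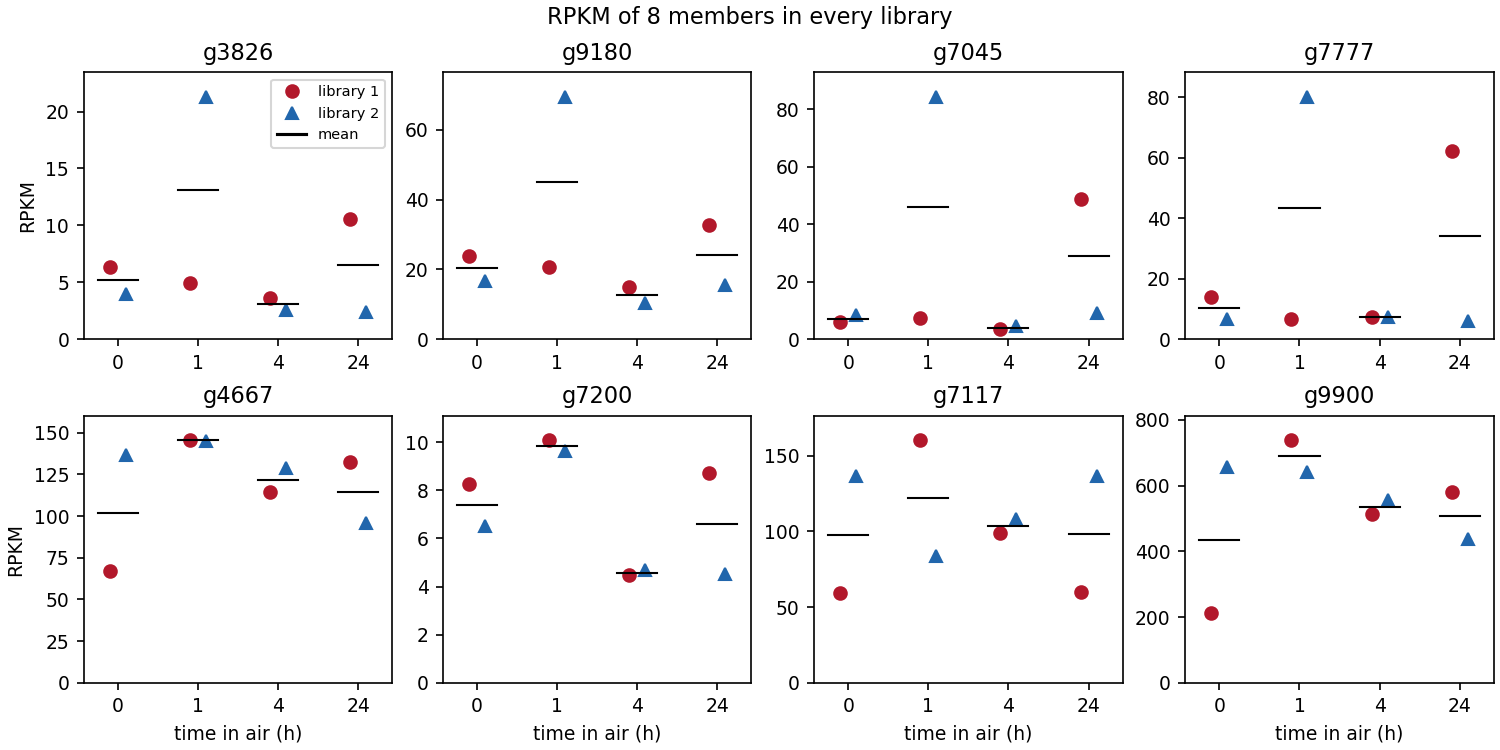
RPKM against time in air for 8 members, with library 1 as circles, library 2 as triangles and the mean of the 2 libraries as a bar. In g3826, g9180, g7045 and g7777 the 1 h mean lies between 1 high and 1 low library, whereas the 1 h libraries of g4667 and g7200 nearly coincide.

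Over all members, 1 h library 2 exceeded 1 h library 1 in 70 of 100, compared with 3617 of the 7019 eligible genes. It was at least 2-fold higher, on the log2(RPKM + 1) scale used from here on, in 33 members and at least 4-fold higher in 7, while 1 h library 1 was 2-fold higher in 0 members. Over eligible genes, library 2 was at least 2-fold higher in 132 and library 1 in 181, and 4-fold in 24 and 35. Among the 20 members with the largest gaps, 17 had this 2-fold excess of library 2, and 1 had both 1 h libraries above the 6 others. The largest ratios were those of g7777 (6.78 and 80.2 RPKM at 1 h, 62.3 and 5.93 RPKM at 24 h), g7045 and g9132 (3.25 and 41.2 RPKM at 1 h), at 3.38, 3.36 and 3.31 on the log2 scale.

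The 24 h libraries differed along with those of 1 h. Of the 33 members with the 2-fold excess of 1 h library 2, 24 h library 1 exceeded 24 h library 2 in 32 and was at least 2-fold higher in 22. In 29 of them it was the highest of the 6 libraries outside 1 h. Among the 132 eligible genes with that excess the corresponding counts were 128, 84 and 99. In 27 of the 33, 1 h library 1 lay within the range of the 0 h and 4 h libraries, beside 92 of the 132. Across the 100 members, the log2 ratio of 1 h library 2 to 1 correlated with that of 24 h library 1 to 2 at r = 0.69 (rho = 0.71). Across the eligible genes the value was r = 0.72 (rho = 0.56). These are descriptions over genes of the same 4 libraries. Their part in the choice of the members was not tested.

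**Figure D3:**
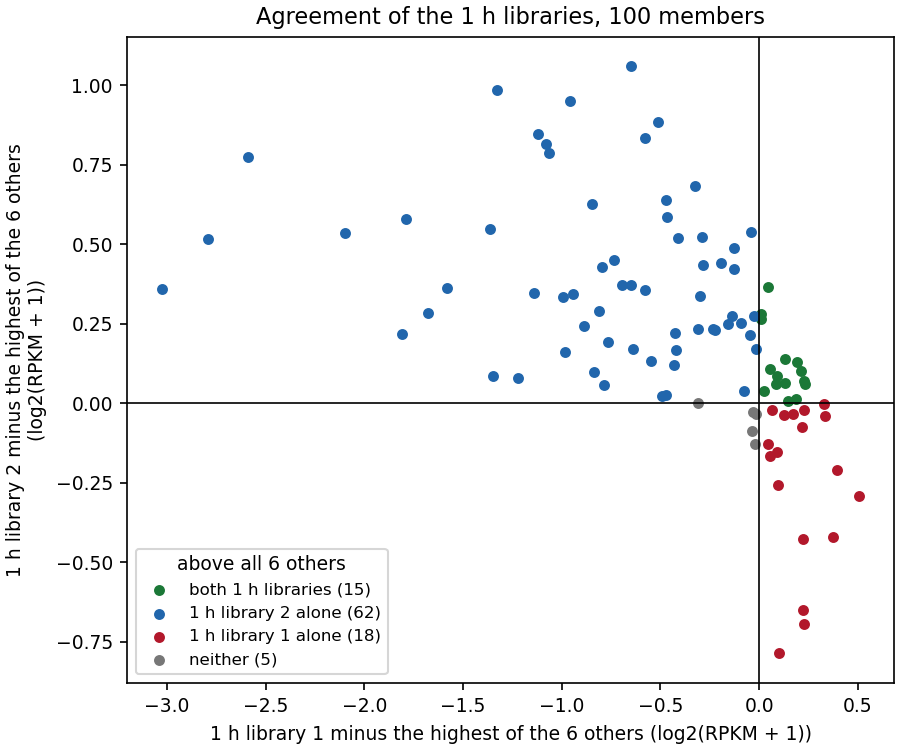
Each point is a member. The horizontal axis gives 1 h library 1, and the vertical axis 1 h library 2, each minus the highest of the 6 other libraries in log2(RPKM + 1). The 15 genes in the upper right have both 1 h libraries on top and lie near the origin, and the 62 genes of 1 h library 2 alone spread far to the left.

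The 15 members with both 1 h libraries on top compare with 62 of 7019 eligible genes, or 0.883%, from which the rule drew by the same values, so nothing is read from the difference. Against single times, both 1 h libraries exceeded both 0 h libraries in 38 members (12.2% of eligible genes), both 4 h libraries in 76 members (36.8%) and both 24 h libraries in 24 members (12.6%). The separation from 24 h was thus the least frequent of the 3, in a set that the rule required to be higher at 1 h than at 24 h in the mean.

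The 15 genes were g7200, g5776, g5879, g7375, g3102, g245, g7855, g4667, g250, g5607, g4478, g2082, g4292, g4098 and g8209. Their gaps ran from 0.21 to 0.37, with a median of 0.26, and their 1 h libraries differed by at most 0.32 on the log2 scale. g7200, with 4 coding exons and 1137 bp of coding sequence at scaffold01003 (1244487 to 1247010, minus strand), had the largest gap of the 15. It stood at 10.1 and 9.63 RPKM at 1 h, 8.26 and 6.54 RPKM at 0 h, 4.48 and 4.67 RPKM at 4 h, and 8.72 and 4.52 RPKM at 24 h. The 4 h libraries were the tightest and among the lowest, and 24 h library 1 came closest to the 1 h values.

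In g4667 the 1 h libraries were almost equal. This long gene has 38 coding exons with 5016 bp of coding sequence and lies on scaffold00629 (469105 to 482619, plus strand). It stood at 146 and 145 RPKM at 1 h, 67.0 and 137 RPKM at 0 h, 114 and 129 RPKM at 4 h, and 133 and 96.1 RPKM at 24 h. The gap of 0.26 was 0.09 without 0 h library 1, 0.13 without 24 h library 2 and 0.17 without 4 h library 1. Under trimmed-mean scaling it was 0.12. In g7200 a library held 209 to 544 reads. g5879, with 4 coding exons and 279 bp of coding sequence at scaffold00852 (11867 to 13350, minus strand), had 6.88 and 6.92 RPKM at 1 h, 4.60 and 6.19 RPKM at 0 h, 4.74 and 5.61 RPKM at 4 h, and 5.31 and 5.53 RPKM at 24 h. g3102, with 9 coding exons and 822 bp of coding sequence at scaffold00366 (1927184 to 1930088, plus strand), had 7.75 and 7.11 RPKM at 1 h, and its other libraries ran from 5.01 to 6.56 RPKM. These 4 genes had the widest margin between the lower 1 h library and the highest other library. That margin was 0.13, 0.13, 0.10 and 0.09 log2 units in g5879, g7200, g3102 and g4667. It exceeded the counting error of the reads, taken at 95%, in g4667 only, which was 1 of the 15 genes.

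The 18 members with only 1 h library 1 above all 6 others had a median gap of 0.24. Their 24 h libraries were divided, with library 1 above library 2 in 8 of the 18. That was so in 58 of the 62 members with only 1 h library 2 above all 6 others. Over eligible genes grouped in the same way, 24 h library 1 was above 24 h library 2 in 132 of 402 and in 549 of 688. In 8 of the 18 the highest other library was 24 h library 2 and in 6 it was 0 h library 2. The corresponding counts were 92 and 134 of the 402 eligible genes. g7117, with 10 coding exons and 1977 bp of coding sequence at scaffold01003 (758284 to 762618, plus strand), stood at 160.3 and 84.0 RPKM at 1 h, 59.2 and 136 RPKM at 0 h, 98.7 and 108 RPKM at 4 h, and 60.1 and 137 RPKM at 24 h. The high libraries of this gene were thus 0 h library 2, 1 h library 1 and 24 h library 2, and its gap was 0.24, with 4 h as the next highest time. g5121 had 60.2 and 32.3 RPKM at 1 h beside 24.3 and 51.3 RPKM at 24 h, and g5130 had 21.5 and 11.1 RPKM at 1 h beside 7.95 and 19.9 RPKM at 24 h. Both lie on scaffold00704. In each of these 3 genes, which had the largest ratios of 1 h library 1 to 2 among members (0.93, 0.88 and 0.89 in the order named), 1 h library 2 and 24 h library 1 were low together.

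In the most abundant members, g9900 and g9909, 0 h library 1 was the lowest library. g9900, with 11 coding exons and 1323 bp of coding sequence at scaffold01279 (26686 to 30753, plus strand), stood at 213 and 656 RPKM at 0 h, 739 and 640.3 RPKM at 1 h, 515 and 555 RPKM at 4 h, and 579.5 and 437 RPKM at 24 h. Apart from 0 h library 1, its libraries spanned less than a 2-fold range. g9909, with 12 coding exons and 3777 bp of coding sequence on the same scaffold (73917 to 79870, minus strand), stood at 172 and 350.4 RPKM at 0 h, 382 and 354 RPKM at 1 h, 312 and 299 RPKM at 4 h, and 387 and 239 RPKM at 24 h. Its highest value was in 24 h library 1, so it was one of the 5 members for which neither 1 h library was above the rest. 0 h library 1 was the lowest of all 8 libraries in 8 of the 15 members with both 1 h libraries on top. It was the lowest in 6 of the 62, in 3 of the 18 and in 3 of the 5. Over eligible genes grouped in the same way and order, it was the lowest in 24 of 62, 196 of 688, 80 of 402 and 923 of 5867. RPKM here refers to the whole gene span, introns included, so levels of different genes are compared per length of the gene and not of the transcript.

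In the other groups, 67 of the 100 members had their second highest mean at 24 h, 19 at 0 h and 14 at 4 h. Over the 7019 eligible genes, the highest of these 3 times was 24 h in 1527, 0 h in 3770 and 4 h in 1722. The 24 h level was above the 0 h level in 79 members, beside 2490 eligible genes. The median difference was 0.09 on the log2 scale, beside -0.15 over eligible genes. This difference was not ranked by the rule, although the rule held all 3 levels below that of 1 h. It followed 24 h library 1. Relative to the 0 h mean, the median member stood at 0.36 in 24 h library 1 and at -0.10 in 24 h library 2, and at 0.61 in 1 h library 2 and 0.15 in 1 h library 1. In both 4 h libraries the median member was below the 0 h mean, at -0.26 and -0.19, beside -0.21 and -0.18 for eligible genes. Both 24 h libraries were above both 0 h libraries in 8 members (11.7% of eligible genes) and below both in 0 members (33.4%). Both 4 h libraries were below both 0 h libraries in 48 members (48.2%). Levels at 4 h depend on the scaling. Under trimmed-mean scaling the median fold change at 4 h against 0 h was 0.00 on the log2 scale both over all genes and over members, where it had been -0.20 and -0.23.

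Across all genes, limma was fitted to log2(RPKM + 1) for the 9326 genes averaging 1 RPKM or more, with Benjamini-Hochberg adjustment and a call at an adjusted p under 0.05. All 100 members passed that level through the rule. At 1 h against 0 h, 0 members were called higher (0% of all genes tested), and the smallest adjusted p among members was 0.443. Voom on the recovered reads also called 0. At an unadjusted p under 0.05, limma had 3 members higher (2.14% of all genes tested). That count moved with the library left out, and so did the count over all genes. The members' median log2 fold change was 0.39, or 0.65 without 1 h library 1 and 0.16 without 1 h library 2. Over all genes tested the median was -0.08, -0.08 and -0.09 in turn. At 4 h against 1 h, 0 members were called lower (0.236%), with 32 at an unadjusted p under 0.05 (10.1%). Voom again called 0 members, with 22 lower at an unadjusted p under 0.05, beside 635 of all 9326 genes. Members had a median log2 fold change of -0.64, or -0.87 without 1 h library 1 and -0.41 without 1 h library 2. All genes tested had -0.10, -0.09 and -0.11 in turn. At 24 h against 1 h, 0 members were called lower (0%) by limma or by voom, and 0 had an unadjusted p under 0.05 in limma (0.558%). The median of members there was -0.30. It was -0.55 without 1 h library 1, -0.04 without 1 h library 2, -0.59 without 24 h library 1 and -0.07 without 24 h library 2. Each of these leaves 1 library in a group. Over all genes tested the median was -0.06, and -0.06, -0.05, -0.07 and -0.04 in that order. The rule used these 3 differences, and nothing is read from the counts or the medians. In none of these 3 comparisons was a member called at an adjusted p under 0.05 when any 1 library was left out. For g3826 the log2 fold change at 1 h against 0 h was 0.92 with an SE of 0.77 (limma adjusted p = 0.645), for g9180 it was 0.89 with an SE of 0.59 (limma adjusted p = 0.581), and for g4667 it was 0.60 with an SE of 0.33 (limma adjusted p = 0.533).

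The later comparisons left the members nearly without calls as well. At 24 h against 0 h, 0 members were called higher (0%) or lower (0%), also by voom, and at an unadjusted p under 0.05 limma had 1 higher (4.12%) and 0 lower (14.3%). The members' median log2 fold change was 0.07, or -0.06 without 24 h library 1 and 0.38 without 24 h library 2. Over all genes tested it was -0.16, -0.16 and -0.14 in turn. At 4 h against 0 h, 0 members were called higher (2.16%), which the rule limited by its condition on that rise, and 1 was called lower (9.97%). Over all genes the calls divided into 201 higher and 930 lower, and into 300 and 400 under trimmed-mean scaling. The called member was g9166, a gene of 4 coding exons and 558 bp of coding sequence at scaffold01211 (425597 to 426901, plus strand). It stood at 22.7 and 24.0 RPKM at 0 h, 18.7 and 38.9 RPKM at 1 h, 7.67 and 8.39 RPKM at 4 h, and 29.8 and 16.3 RPKM at 24 h, with a log2 fold change of -1.43 at 4 h against 0 h (SE 0.37, limma adjusted p = 0.047). The 0 h and 4 h libraries of this gene did not overlap. The call was lost without either 0 h library or either 4 h library and in 4 other settings, with an adjusted p of up to 0.224, while the log2 fold change stayed between -1.22 and -1.53. Which members were called at 4 h against 0 h also varied with the library left out. The members' median log2 fold change was -0.30 without 0 h library 1 and -0.12 without 0 h library 2. Over all genes tested it was -0.15 and -0.23. All comparisons with 0 h share the 0 h pair.

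The same measure can also be read in libraries not used for a choice. The rule was applied to the 4 libraries numbered 1 and the chosen 100 genes were read in the 4 libraries numbered 2, and the reverse. Of the 100 genes chosen on libraries numbered 1, where their median gap was 0.62, the 1 h library was the highest of the 4 numbered 2 in 0 genes, beside 23.2% of all genes eligible on number 1. Of the 100 chosen on libraries numbered 2, with a median gap of 1.15, it was the highest of the 4 numbered 1 in 0 genes, beside 18.1%. In the held-out libraries the 1 h level of the chosen genes minus that of the highest other time had a median of -1.09 and -1.17 on the log2 scale, compared with -0.21 and -0.31 for all eligible genes. The 2 sets of 100 shared 0 genes with each other, and 5 and 39 with the members. The held-out counts are thus mostly of other genes, and nothing is read from them about the members. They also changed with how the libraries were joined across times. Deviations of same-numbered libraries correlated at -0.73 between 1 h and 24 h. The part of that correlation in the held-out counts was not tested. With the numbers crossed at 24 h, a choice made after seeing the data, the counts were 11 beside 19% of eligible genes and 10 beside 14%, and the held-out medians were -0.25 and -0.31. Genes are not replicates, so no p is given.

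**Figure D4:**
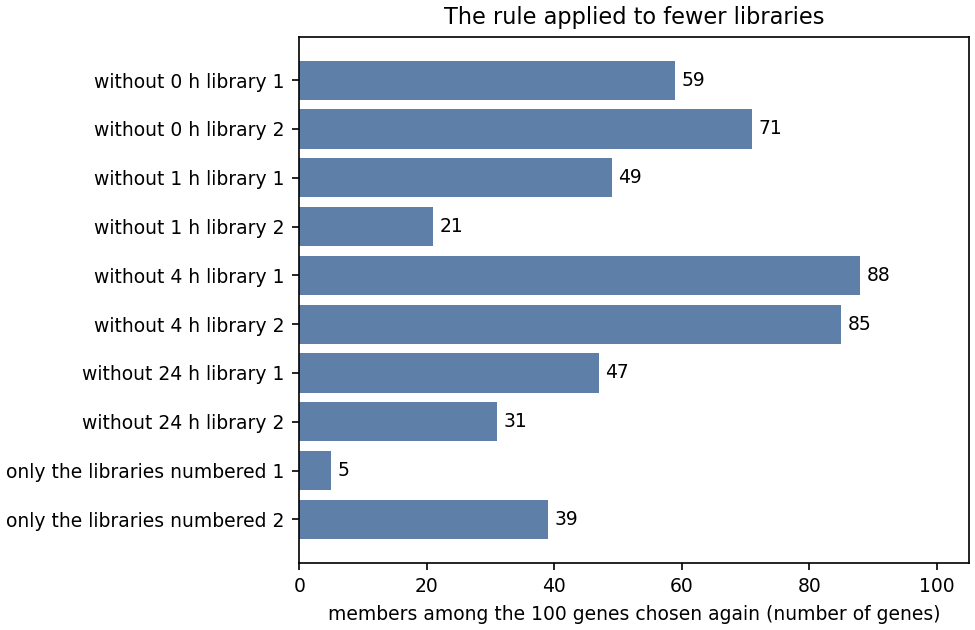
The bars give how many of the 100 members were among the 100 genes chosen when the same rule was applied without 1 library, or to the libraries of 1 number only. The number runs from 88 without 4 h library 1 to 21 without 1 h library 2, and is 5 with the libraries numbered 1 only.

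Membership rested on single libraries in the same way. Without 1 h library 2, 21 of the 100 members were chosen again and the members' median gap was -0.04, with 47 still highest at 1 h. Without 1 h library 1, 49 were chosen again and the median gap was 0.48. Leaving out 24 h library 1 kept 47 members and leaving out 24 h library 2 kept 31, since 24 h library 1 then set the 24 h level alone. Without 0 h library 1, 59 were kept, without 0 h library 2 71, and without either 4 h library 88 and 85. The 4 h libraries, which the rule met with low values for most members, changed membership least.

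The edge of the set was not marked by a step. The last member, g3806 on scaffold00514, had a gap of 0.208 with 16.8 and 24.99 RPKM at 1 h and 21.1 and 14.8 RPKM at 0 h, and the next gene, g9567 on scaffold01246, had a gap of 0.206 with 25.4 and 29.6 RPKM at 1 h and 21.1 and 26.2 RPKM at 0 h. The lowest mean level among members was that of g7828, at 5.31 RPKM, and 36 genes with a large enough gap were left out because their mean was under 5 RPKM, the nearest of them being g6318 at 4.96 RPKM. Of the genes left out by the condition on 4 h against 0 h, 0 had a large enough gap. The member nearest to it was g2014, at 0.95.

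The gene models of the members, which the rule did not use, resembled those of eligible genes. Members had a median of 7 coding exons (eligible genes 6), a coding length of 910.5 bp (912 bp) and a span of 2613 bp (2624 bp), and the spliced transcript made up 46.6% of the span (44.8%). Start and stop codons were both present in 83 members (84.1% of eligible genes), 53 lay on the plus strand (49.8%), and 1, g4997, had more than 1 predicted transcript (1.32%). Within the set, coding length had a median of 884 bp in the 15 genes with both 1 h libraries on top, 1015.5 bp in the 62 of 1 h library 2 alone and 816 bp in the 18 of 1 h library 1 alone, with overlapping ranges. No test was made of these differences, since genes are not replicates.

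Models without introns numbered 4, compared with 1.38% of eligible genes. They were g5689, g5776, g3103 and g9866. g5689, with 863 bp coding length at the edge of scaffold00820 (1 to 1090, plus strand) and no complete frame, stood at 26.1 and 70.5 RPKM at 1 h, 25.8 and 37.7 RPKM at 0 h, 14.7 and 13.1 RPKM at 4 h, and 37.7 and 33.7 RPKM at 24 h. Unlike the leading members, its 24 h libraries were close to each other. g5776, with 843 bp of coding sequence at scaffold00825 (558815 to 560058, minus strand), was among the 15, at 23.0 and 20.5 RPKM at 1 h, 15.2 and 19.1 RPKM at 0 h, 14.97 and 19.2 RPKM at 4 h, and 19.5 and 15.3 RPKM at 24 h.

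The members were scattered over 54 scaffolds, with at most 9 on any of them, on scaffold00012, where 307 genes were eligible. No member overlapped another gene model, and 2 pairs of members were next to each other, beside 4131 such pairs among eligible genes. g7343 and g7344 lie head to head on scaffold01012, 1775 bp apart, and both were high in 1 h library 2. g7343, a long gene of 38 coding exons with 5775 bp of coding sequence (265687 to 281522, minus strand), had 4.44 and 10.4 RPKM at 1 h and 7.82 and 3.86 RPKM at 24 h. g7344, with 3 coding exons and 357 bp of coding sequence (283298 to 284612, plus strand), had 10.5 and 27.4 RPKM at 1 h and 25.9 and 6.59 RPKM at 24 h. The other pair, g3102 and the intronless g3103, lies tail to tail on scaffold00366, 1946 bp apart, and g3103 (minus strand, 1932035 to 1932458) had 14.3 and 10.97 RPKM at 1 h and 7.64 and 13.3 RPKM at 0 h.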

How the data were processed

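RNA of 8 samples was sequenced, 2 per time. Per the labels' protocols, TRIzol extracts were purified over columns and made into TruSeq libraries. TopHat (alignment) and HTSeq (counting) are named in the submitters' processing notes, without versions. The sources used here state neither strandedness nor assembly. The authors deposited RPKM values, 1 column per library per the file headers, and AUGUSTUS gene models with positions (start and end) and a prediction score that was not used. RPKM multiplied by the gene's end minus start and by the library's scale gave whole reads (within 0.01) for 100% of values in every library, so the span includes introns and a gene with long introns has a low RPKM.

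The set was chosen in Python 3.11.15. A two-sided limma test (version 3.58.1, R 4.3.3) on log2(RPKM + 1) took in the 4 groups of all 8 libraries, with trend and robust moderation. It had 4 residual degrees of freedom and, in the median, 3.63 prior ones. Fold changes on this scale understate those of low genes. The fit was tested on simulated data. Alternatives changed pseudocount, filter, scaling (trimmed mean of ratios, trimming 30% and 5% at each end), voom on recovered reads, block, groups and each library. Members and lists were chosen with earlier results of these data known. Genes were named by rule: the 6 largest gaps, the 4 widest margins of both 1 h libraries, the 3 largest ratios between 1 h libraries each way, the 2 most abundant, the edge of the set, adjacent pairs, the 2 with the most coding exons, the 2 intronless members of largest gap and called members. Others named were chosen after their values were seen. The numbers 1 and 2 are not stated to pair samples across times.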

Additional observations from a re-analysis of the deposited data

Results flagged for a closer look

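The changes from 0 h at 1 h and at 4 h differed by the test of the difference itself, the comparison of 4 h with 1 h, for 38 genes in all (limma adjusted p under 0.05, 16 higher and 22 lower at 4 h), and 0 of them were members of the set. The count rests on single libraries, with 0 genes when any library of 0 h or 4 h, or 1 h library 1, was left out, 17 without 1 h library 2 and 106 without either 24 h library.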

How the results depend on the processing

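Members chosen again out of 100 ran from 21 to 88 when 1 library was left out, and were 5 on the libraries numbered 1 only and 39 on those numbered 2 only. Another pseudocount, level condition, way of averaging or scaling kept 68 to 95, and dropping the condition on 4 h against 0 h kept 100. Over the same members, those with all remaining 1 h libraries above all remaining others ran from 15 to 77 in leave-outs added after seeing the data, with 77 without 1 h library 1, 33 without 1 h library 2 and 26 without 24 h library 1. The held-out count of 0 for genes chosen on number 1 became 1 with a mean of at least 10 RPKM and 1 with trimmed-mean scaling, and with the numbers crossed at 24 h the held-out counts for number 1 and 2 became 11 and 10. With 1 library per time under each number, none could be left out. In the sets chosen with other settings on all 8 libraries, the genes with both 1 h libraries above all 6 others also varied in number. They ran from 11 with trimmed-mean scaling to 18 with a mean of at least 1 RPKM, beside 15 in the main set. Trimmed-mean scaling moved the median of all genes at 4 h against 0 h from -0.20 to 0.0042, at 4 h against 1 h from -0.10 to 0.02 and at 24 h against 0 h from -0.16 to -0.02. Genes called ran, when 1 library was left out, from 0 to 1 at 1 h against 0 h (1 without 1 h library 1), from 0 to 106 at 4 h against 1 h, from 40 to 1531 at 4 h against 0 h (40 and 47 without 4 h library 1 and 2, 149 without 0 h library 1), from 0 to 14 at 24 h against 0 h (14 without 24 h library 1) and from 0 to 0 at 24 h against 1 h. In these fits the lone library of a group is assumed to vary like the others. The 38 calls at 4 h against 1 h became 79 with a pseudocount of 0.1 RPKM, 19 with no filter, 24 with voom and 0 with the 2 groups alone. The 1131 calls at 4 h against 0 h became 700 with trimmed-mean scaling, 698 with voom and 1883 with the 2 groups alone. In that last fit 9 members were called lower and 1 higher, beside 1473 and 410 of all 9326 genes tested. With the 2 groups alone, 24 h against 0 h had 1 call. The cause was not tested. The replicate number as a replicate block gave 0 calls at 4 h against 1 h, 830 at 4 h against 0 h and 0 in the other 3 comparisons. It took away the call of g9166 and changed no other call of a member, and deviations of same-numbered libraries correlated at -0.73 between 1 h and 24 h and at 0.01 to 0.35 for the other pairs of times. The replicate block with the numbers crossed at 24 h was a setting added after seeing the data. It gave 113 calls at 4 h against 1 h and 1697 at 4 h against 0 h. Of these, 78 and 1350 were lower, with 1 member in each, and the other 3 comparisons had 0 calls.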

Other observations

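g9132 has 8 coding exons and 909 bp of coding sequence and lies at scaffold01211 (238410 to 241084, plus strand). It was higher in library 2 than in library 1 at all 4 times, and it also differed between times within a number. Its libraries numbered 1 stood at 3.51, 3.25, 4.59 and 7.33 RPKM and those numbered 2 at 20.2, 41.2, 28.5 and 13.2 RPKM at 0, 1, 4 and 24 h. It was the 1 eligible gene of 7019 in which library 2 exceeded library 1 by at least 1.5-fold in log2(RPKM + 1) at all 4 times, and in 2 eligible genes, neither of them a member, library 1 exceeded library 2 to that degree.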
